A study of Mus musculus with 2 samples.

Results

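Acetylated histone H3 was examined at 6 housekeeping genes of mouse Th2 cells: Actb, Gapdh, Eef1a1, Rplp0, Hsp90ab1 and B2m. Each gene was followed in a window of the mm9 genome, set by coordinates, and the windows were read in bins of 1 kb. No measured value entered this rule, but the genes were chosen with earlier results of these data known. The windows were chr5:143645001-143690000 for Actb, chr6:125090001-125135000 for Gapdh, chr9:78305001-78350000 for Eef1a1, chr5:115985001-116030000 for Rplp0, chr17:45680001-45730000 for Hsp90ab1 and chr2:121950001-121995000 for B2m. They spanned 45 kb each, and 50 kb for Hsp90ab1. Together they held 275 of the bins, against 2246042 bins covered by at least 1 read in the whole series.

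Chromatin immunoprecipitation followed by sequencing (ChIP-seq) pulls down DNA fragments with an antibody and counts where they map. For the H3KAc library the antibody recognised histone H3 carrying acetylated lysines, and for the IgG library it was non-specific rabbit IgG, the background control. Both came from C57BL/6 spleen T cells positive for CD4 and CD62L, which were stimulated through CD3 and CD28 for 5 days with 10 ng/ml IL-4 and 2 µg/ml of an antibody against interferon gamma and then rested for 3 days. Both groups therefore share strain, culture and cell type, differ in the antibody, and hold 1 library each. Neither the age of the animals nor the number pooled is known from the labels. Intervals below cover counting error only and compare these 2 libraries, with no replicate check and no p-value. Th2 marker genes were not examined here, since the report covers only the 6 windows.

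Acetyl groups on histone H3 are added by acetyltransferases and removed by deacetylases. The mark neutralises the charge of the lysines and is typical of promoters and enhancers of active genes. Housekeeping genes are transcribed in nearly all cells, and their promoters are a usual place to find it. Actb encodes cytoplasmic beta actin, Gapdh a glycolytic enzyme, Eef1a1 the elongation factor that brings aminoacyl-tRNA to the ribosome, Rplp0 a protein of the ribosomal stalk, Hsp90ab1 a constitutive chaperone, and B2m the light chain of MHC class I.

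The RefSeq table used for names is on GRCm38, so it gave the neighbours of each gene but no position in these windows. In its order of protein-coding genes, Actb lies between Fbxl18 and Fscn1, Gapdh between Iffo1 and Ncapd2, Eef1a1 between Mto1 and Slc17a5, Rplp0 between Pxn and Gcn1, Hsp90ab1 between Slc35b2 and Slc29a1, and B2m between Patl2 and Trim69. A high bin in a window was therefore not assigned to the named gene or to a neighbour. Gapdh, Eef1a1, Rplp0 and other members have processed copies elsewhere in the mouse genome, and the labels do not say how reads with more than 1 alignment were treated. Low counts inside these windows are uncertain for that reason.

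RefSeq promoter entries (GRCm38.p6) were found for 4 of the 6 genes. They are shown so that the elements near the start of these genes can be seen beside the H3KAc levels of their windows. The stretch before the listed start is printed 5′ to 3′ on the strand of the gene, 160 bases for B2m and 120 bases for the others, with motif matches in capitals.
B2m: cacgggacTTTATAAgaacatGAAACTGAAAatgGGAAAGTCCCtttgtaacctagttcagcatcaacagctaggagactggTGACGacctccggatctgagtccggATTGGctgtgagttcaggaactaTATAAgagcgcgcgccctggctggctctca
Rplp0: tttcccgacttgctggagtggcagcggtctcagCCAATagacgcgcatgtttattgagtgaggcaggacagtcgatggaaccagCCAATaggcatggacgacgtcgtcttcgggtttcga
Eef1a1: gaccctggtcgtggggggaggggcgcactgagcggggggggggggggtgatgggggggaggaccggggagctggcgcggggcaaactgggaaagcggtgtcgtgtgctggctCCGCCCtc
Gapdh: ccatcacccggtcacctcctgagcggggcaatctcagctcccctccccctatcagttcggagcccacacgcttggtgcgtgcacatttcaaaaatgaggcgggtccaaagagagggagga

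Motifs were searched on both strands of each whole 300-base entry, 250 bases before and 50 after the start, and in all 32851 entries of the table. The B2m entry held an interferon element (GAAA, any 2 bases and GAAA again) from -139 to -130, found in 3.44% of entries, and next to it a match to the kappa B site from -126 to -117, found in 8.46%. It also held the letters TATAA at -30, a CCAAT box on the reverse strand at -53 and a CRE core (TGACG) at -78. These motifs were found in 24.9%, 37.4% and 20.8% of entries. Further TATAA matches in B2m lay from -150 to -146 and, on the reverse strand, from -151 to -147. A further CRE core lay on the reverse strand from 45 to 49 after the start. The TATAA letters were chosen after seeing the sequences, in place of TATAAA (13.6% of entries), which in B2m matched on the reverse strand from -152 to -147. The Rplp0 entry held CCAAT boxes at -87 and -36, a GC box at -190, a CRE core at -200, and TATAAA at 18 after the listed start. The Eef1a1 entry held GC boxes (GGGCGG, 35.7% of entries) on the reverse strand at -191 and -8 and a kappa B match at -242, and its TATAA lay at 26 after the start. None of the searched motifs lay in the Gapdh entry. The search also covered the CArG box by name (1.63%), the heat shock element GAANNTTC (7.86%), the ETS core CCGGAA (14.9%), the E-box CACGTG (7.15%) and a start of C followed by 4 pyrimidines (2.51%). None of these was found in the 4 entries. The start of C and 4 pyrimidines was looked for only at the listed start, so one at another base would be missed. Observed over expected CpG was 0.928 for Rplp0, 0.697 for Eef1a1, 0.682 for B2m and 0.501 for Gapdh, against a median of 0.384 over all entries. These matches are descriptions of the sequence and not binding sites.

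Counts are of distinct read positions (repeats of the same start and strand counted 1 time), and levels are positions per 1000000 distinct positions of the library (RPM). Of 21845451 H3KAc reads 9.77% were repeats, and of 7626703 IgG reads 75.1% were. The H3KAc library had 19711169 distinct positions and the IgG library 1897666, or 8.78 and 0.845 per covered bin. A single IgG position was thus worth 0.527 RPM, and 30.9% of the bins in the 6 windows had none. Ratios of single bins to IgG are accordingly less precise than those of whole windows.

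In mean H3KAc, all 6 windows lay above the median of autosomal 45-kb tiles, by unlike amounts. The mean was 2.13 RPM per kb for Actb (95% Poisson interval 2.04 to 2.23), 1.80 for Hsp90ab1 (1.72 to 1.89), 1.67 for Gapdh (1.58 to 1.76), 1.53 for Rplp0 (1.45 to 1.61), 0.982 for B2m (0.918 to 1.05) and 0.848 for Eef1a1 (0.788 to 0.911). Each step in this order exceeded counting error, the smallest being Hsp90ab1 over Gapdh at 1.08 times (1.01 to 1.16). The median of 34579 autosomal tiles of 45 kb was 0.470 RPM per kb. Actb lay above 99.9% of these tiles, Hsp90ab1 above 99.5%, Gapdh above 99.3%, Rplp0 above 98.7%, B2m above 90.5% and Eef1a1 above 84.8%.

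IgG was also high in 4 of the windows. It was 1.41 RPM per kb for both Gapdh (1.17 to 1.68) and Rplp0, 1.37 for Actb (1.13 to 1.64) and 1.23 for Hsp90ab1 (1.02 to 1.48), and these lay above 93.4% to 96.1% of tiles. B2m and Eef1a1 had 40 IgG positions each, 0.468 RPM per kb (0.335 to 0.638), above 53.7% of tiles. The 4 windows with high IgG did not differ from each other in IgG beyond counting error, and the lowest of them, Hsp90ab1, was 2.63 times B2m (1.82 to 3.87). The high windows in H3KAc were thus the same 4 as in IgG, and the part of general fragment recovery in their H3KAc level was not tested.

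**Figure D1:**
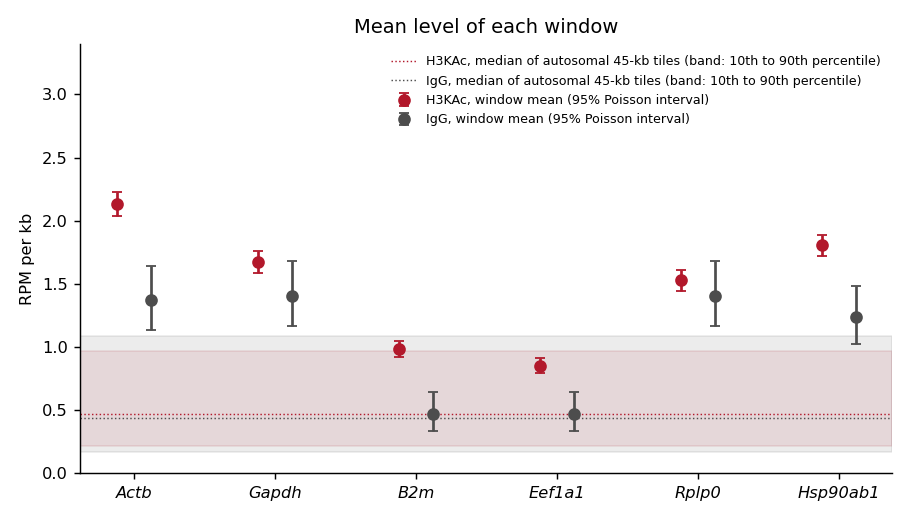
Mean level of each window in RPM per kb, with 95% Poisson intervals, for H3KAc (red) and IgG (grey). Dotted lines and bands give the median and the 10th to 90th percentile of autosomal 45-kb tiles. Actb, Gapdh, Rplp0 and Hsp90ab1 sit above both bands, and B2m and Eef1a1 lie near the top of the H3KAc band with IgG close to its median.

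Relative to IgG, the order of the windows changed. B2m had the highest H3KAc over IgG ratio, 2.10 (exact conditional binomial 95% interval 1.53 to 2.96), followed by Eef1a1 with 1.81 (1.32 to 2.55), Actb with 1.56 (1.29 to 1.89) and Hsp90ab1 with 1.46 (1.21 to 1.78). Gapdh, at 1.19 (0.985 to 1.44), and Rplp0, at 1.09 (0.9001 to 1.32), did not differ from IgG beyond counting error over the whole window. With all deposited reads, where copies of a position count as independent, both intervals lay above 1, at 1.14 (1.04 to 1.27) for Gapdh and 1.12 (1.01 to 1.24) for Rplp0. The 6 windows together had 8123 positions in H3KAc and 554 in IgG, and their ratio was 1.41 (1.30 to 1.54). The B2m ratio lay above 95.2% of autosomal tiles and the Rplp0 ratio above 53.3%.

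A minority of bins held a large part of the H3KAc in the windows. Of the 275 bins, 41 (14.9%) held at least 46 positions, the 99th percentile of covered bins, and 1.02% of covered bins of the genome did so. These 41 bins are called high bins here. They held 44.3% of the H3KAc positions in the windows. The contrast was weaker than elsewhere: high bins had 4.54 times the H3KAc of other bins in the windows, and 10.1 times outside. Since they were selected for H3KAc, the selection raises the ratios to IgG of these bins and their runs below, and lowers those of the other bins. Actb had 16 high bins, Hsp90ab1 9, Gapdh 7, Rplp0 5, and B2m and Eef1a1 2 each. The high bins formed 18 runs when joined over at most 1 bin, and 8 of the runs were 1 kb wide.

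**Figure D2:**
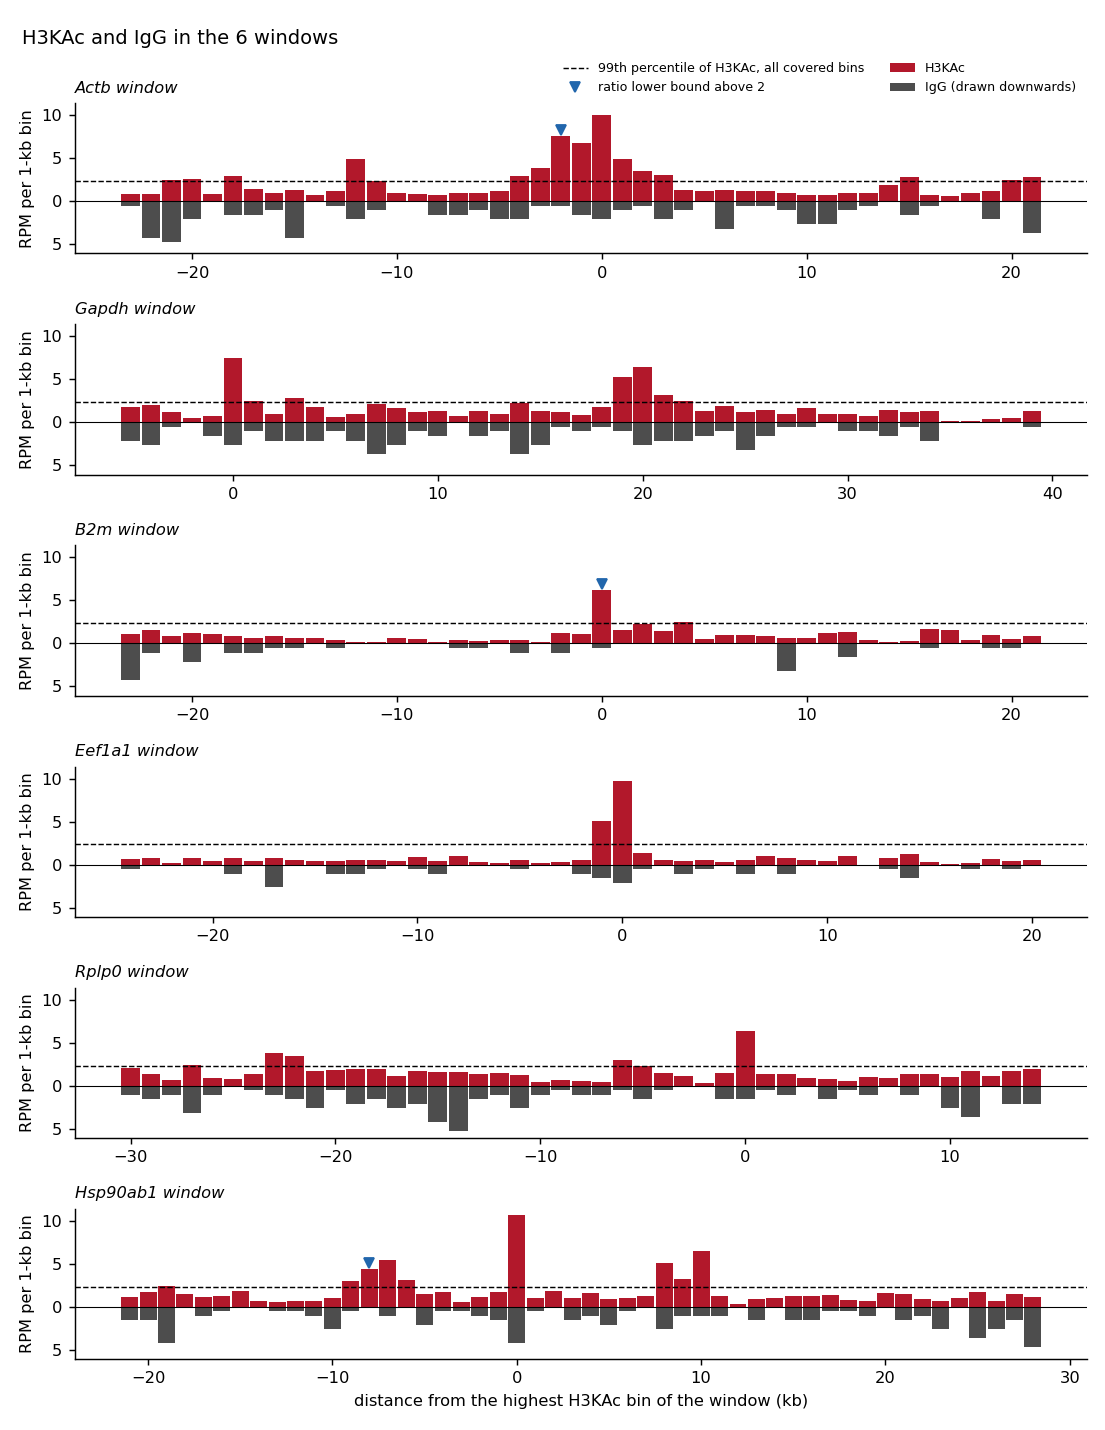
H3KAc (red, upwards) and IgG (grey, downwards) in RPM for every 1-kb bin of the 6 windows, against the distance in kb from the highest H3KAc bin of each window. The dashed line is the 99th percentile of H3KAc over all covered bins, and triangles mark the 3 bins whose ratio had a lower bound above 2. Actb shows a block of 8 adjacent high bins, Eef1a1 a single pair, and Hsp90ab1 several separate peaks.

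The broadest block lay in the window of Actb, the actin gene of the cytoskeleton. All 8 bins from chr5:143664001 to 143672000 were high, with 59, 77, 150, 133, 198, 97, 70 and 61 H3KAc positions in order along the chromosome. IgG had 4, 1, 1, 3, 4, 2, 1 and 4 positions in the same bins, so no bin of the block exceeded 4. The block held 42.9 RPM (40.03 to 45.9) in H3KAc, a ratio to IgG of 4.07 (2.62 to 6.69), and it spanned the midpoint of the window. Across the genome, 0.879% of 14336 such runs were 8 kb or wider. Its highest bin, chr5:143668001-143669000, had 10.0 RPM (8.69 to 11.5), a level reached by 0.0128% of covered bins, and a ratio of 4.77 (1.83 to 17.7). The bin from 143666001 to 143667000, with 150 H3KAc positions and 1 IgG position, had a ratio of 14.4 (2.55 to 574). The Actb window held 4 further runs. The ratio was 1.05 (0.630 to 1.88) for the one from 143647001 to 143651000 and 1.46 (0.683 to 3.71) for the one that reached the right edge from 143688001, so H3KAc there was not distinguishable from IgG. The run from 143656001 to 143658000 had a ratio of 2.28 (1.02 to 6.31).

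A pair of separate 4-kb runs lay in the window of Gapdh, the glycolytic gene. The window's highest bin opened the first, at chr6:125095001-125096000, with 147 H3KAc positions or 7.46 RPM (6.30 to 8.77), 5 IgG positions and a ratio of 2.83 (1.19 to 8.85). The second run, from 125114001 to 125118000, lay 1.5 kb from the midpoint of the window and the first 13.5 kb from it. The ratio of the second, with 343 positions in H3KAc and 15 in IgG, was 2.20 (1.32 to 3.98), and that of the first, with 269 and 15, was 1.73 (1.03 to 3.13). With Gapdh bins classed as high by reads of 1 strand and measured with H3KAc reads of the other, a check added after seeing the data, the 6 high bins had ratios of 2.25 (1.48 to 3.57) and 2.27 (1.47 to 3.68) in the 2 directions. A stretch near the right end, from 125129984 to 125130838, had no read start in either library over 855 bp.

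The translation genes Eef1a1 and Rplp0 had contrasting windows. In the Eef1a1 window, both high bins were adjacent, from chr9:78328001 to 78330000, 0.5 kb from the midpoint. They had 99 and 192 H3KAc positions and 3 and 4 IgG positions, together 14.8 RPM (13.1 to 16.6) with a ratio of 4.002 (1.92 to 10.04). The higher bin alone had 9.74 RPM (8.41 to 11.2), a ratio of 4.62 (1.78 to 17.1), and 25.5% of all H3KAc positions in the window. That bin had 17.5 times the 11 positions of the median bin of the window. The other 43 bins were at 0.544 RPM per kb (0.495 to 0.596) in H3KAc, against a tile median of 0.470, and at 0.404 in IgG (0.278 to 0.568). The Eef1a1 window thus combined the lowest mean with one of the highest bins. Stretches of 300 bp or more without a read start in either library covered 12903 bp of it, and 14287 bp of the B2m window. Their part in the low mean and median was not tested.

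In the Rplp0 window, the highest bin, chr5:116015001-116016000, had 125 H3KAc positions, 6.34 RPM (5.28 to 7.56), and 3 in IgG, with a ratio of 4.01 (1.34 to 19.7). It lay 7.5 kb from the midpoint. The high bin nearest the midpoint, 116009001 to 116010000, had 58 H3KAc positions and 1 IgG position, a ratio of 5.58 (0.963 to 224) that was not distinguishable from 1 at this depth. A 2-kb run from 115992001 to 115994000 had a ratio of 2.73 (1.14 to 8.55). The single high bin from 115988001 to 115989000 held 47 in H3KAc and 6 in IgG, and its ratio was 0.754 (0.322 to 2.16). H3KAc outside the high bins of this window averaged 1.24 RPM per kb (1.17 to 1.32), and IgG 1.38 (1.13 to 1.67).

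The window of Hsp90ab1, the chaperone gene, had the highest single bin of the 6 windows. The bin chr17:45701001-45702000 held 209 H3KAc positions, 10.6 RPM (9.21 to 12.1), which 0.00944% of covered bins reached. It also held 8 IgG positions, so its ratio was only 2.52 (1.25 to 5.90). A 4-kb run from 45692001 to 45696000 held 314 positions in H3KAc, 15.9 RPM (14.2 to 17.8), and 3 in IgG, and its ratio was 10.1 (3.42 to 49.1). A 3-kb run from 45709001 to 45712000 had 292 and 9 positions, a ratio of 3.12 (1.62 to 6.90). The bin from 45682001 to 45683000 passed the H3KAc level with 47 positions but held 8 IgG positions, a ratio of 0.566 (0.265 to 1.39). The highest bin lay 3 kb and the 3-kb run 4 kb from the midpoint. The RefSeq order places Slc35b2 and Nfkbie on one side of the gene and Slc29a1 and Mymx on the other. The runs were not assigned to any of these genes.

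Around B2m, whose product pairs with the MHC class I heavy chain, the window had 2 separate high bins and an IgG count equal to that of Eef1a1. Its highest bin, chr2:121973001-121974000, lay 0.5 kb from the midpoint and held 123 H3KAc positions, 6.24 RPM (5.19 to 7.45), and 1 IgG position, a ratio of 11.8 (2.09 to 471). The next 4 bins had 32, 45, 29 and 49 H3KAc positions and no IgG position. For the bins starting at 121975001 and 121977001, ratios against 0 IgG positions have no upper bound, and the lower bounds of their intervals were 1.13 and 1.23. Outside the 2 high bins H3KAc was still above IgG, at 0.825 RPM per kb (0.765 to 0.888) against 0.478 (0.340 to 0.653), a ratio of 1.73 (1.25 to 2.45). With bins classed on 1 strand and measured on the other, the ratio of the other 43 bins was 1.75 (1.26 to 2.51) and 1.73 (1.24 to 2.47). In both directions the interval for such bins included 1 in each of the other 5 windows. A test of the difference between windows was not made.

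The highest bins ordered the windows differently from the window means. They were not assigned to genes. The run with that of Gapdh lay 13.5 kb from the midpoint of its window, and that of Rplp0 lay 7.5 kb from it. In H3KAc the order was Hsp90ab1, Actb, Eef1a1, Gapdh, Rplp0 and B2m, with 209, 198, 192, 147, 125 and 123 positions. The first 3 did not differ from their neighbours beyond counting error, with Hsp90ab1 1.06 times Actb (0.865 to 1.29) and Actb 1.03 times Eef1a1 (0.841 to 1.26). Eef1a1 was 1.31 times Gapdh (1.05 to 1.63), and Gapdh, Rplp0 and B2m again did not differ from their neighbours in the order. All 6 highest bins had ratios whose lower bound exceeded 1, and summed, with 994 positions in H3KAc and 25 in IgG, their ratio was 3.83 (2.58 to 5.94). With 1 strand or with H3KAc thinned to the IgG number, lower bounds fell below 1 for Actb, Gapdh, Rplp0 and Hsp90ab1, down to 0.640 for Rplp0. These bins were picked for H3KAc, which raises the ratio. When the bin was picked with plus-strand reads and measured with minus-strand reads, or the reverse, the same bin was picked in each of the 6 windows both times and ranked first in the measuring strand. Picked with minus-strand and measured with plus-strand reads, the levels were 11.1 RPM for Actb and Hsp90ab1, 8.46 for Eef1a1, 7.05 for Gapdh, 6.74 for Rplp0 and 6.24 for B2m. Picked with plus-strand and measured with minus-strand reads, they were 11.05 RPM for Eef1a1, 10.1 for Hsp90ab1, 9.0002 for Actb, 7.88 for Gapdh, 6.24 for B2m and 5.93 for Rplp0. The order of the first 3 windows and of the last 2 thus differed between the directions. The lower bounds of the ratios stayed above 1 in both directions.

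**Figure D3:**
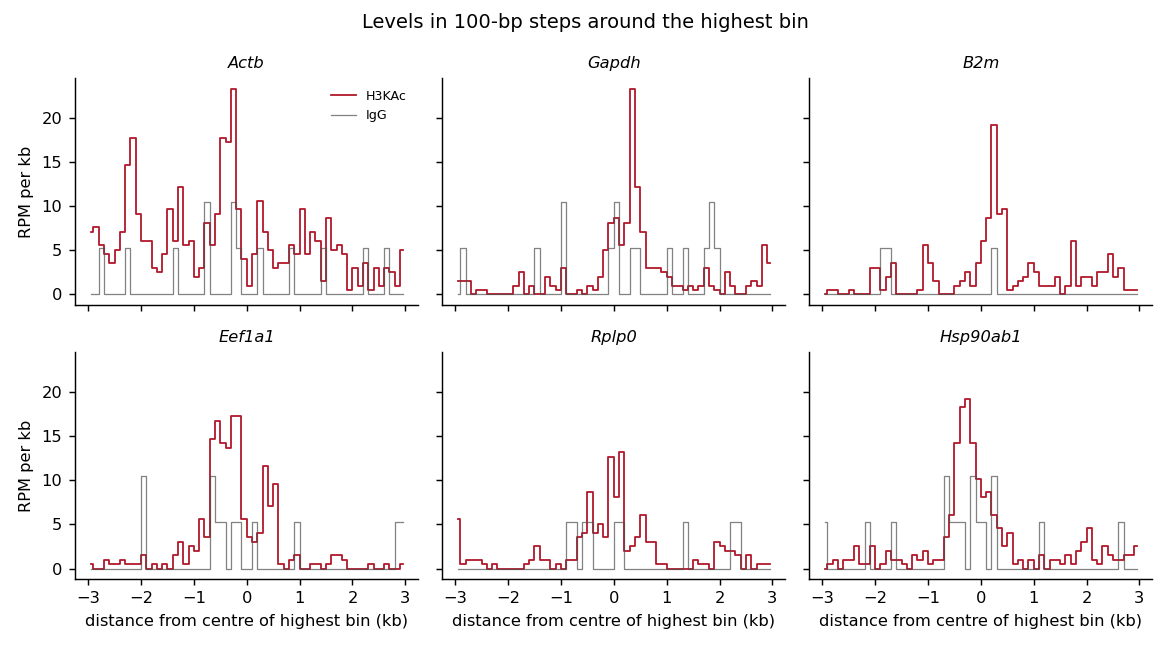
H3KAc (red) and IgG (grey) in RPM per kb, in steps of 100 bp, within 3 kb of the centre of the highest bin of each window. A single IgG position appears as a tall step because the library has few distinct positions. Actb has several maxima across the span and a low step just right of the centre, and Eef1a1 shows a main peak and a smaller one to its right.

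At steps of 100 bp the peaks differed in width. The central 1 kb held 61.3% of the H3KAc positions within 3 kb of the centre for Hsp90ab1, 55.7% for Eef1a1, 53.8% for Gapdh, 53.2% for Rplp0, 46.9% for B2m and 27.2% for Actb. No step of the 60 was empty for Actb, against 7 for Hsp90ab1 and between 14 and 17 for the other 4. In Actb, 46 positions fell in the step centred at -250 bp, 2 at 50 bp and 21 at 250 bp. In Eef1a1, 34 fell at -250 bp, 6 at 150 bp and 23 at 350 bp. Both windows thus had a dip of H3KAc between higher steps, but such dips were not limited to these places. Actb also had 5 positions at -1650 bp, between 35 at -2150 bp and 24 at -1250 bp. Rplp0 had 7 at -150 bp, between 17 at -450 bp and 25 at -50 bp. These steps were chosen after their values were seen, and each read was moved by 100 bp, which limits how sharply a dip can appear. IgG had too few distinct positions at this scale to be compared.

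High bins in the windows stood farther above IgG than high bins elsewhere. To keep the choice of bins apart from their measurement, bins in the top 1% by plus-strand reads were measured with minus-strand H3KAc reads and all IgG reads. The 36 such bins of the windows had 4.67 RPM per kb in H3KAc and 1.62 in IgG, a ratio of 2.87 (2.37 to 3.52). The 21307 such bins outside the windows had 4.02 and 2.16 RPM per kb, a ratio of 1.86 (1.85 to 1.88). With the strands exchanged the ratios were 3.09 (2.53 to 3.82) and 1.86 (1.85 to 1.88). Of the bins chosen, those read more than 2 times per H3KAc position occurred only outside the windows. Without them the outside ratios were 2.02 (2.00 to 2.03) and 2.03 (2.02 to 2.05), still below the pooled intervals of the windows. Leaving out these bins was chosen after seeing the data. Taken 1 window at a time, the intervals lay above 1.86 in both directions for Actb, Hsp90ab1 and B2m. They included 1.86 for Gapdh, at 2.25 (1.48 to 3.57) and 2.27 (1.47 to 3.68). They also included it for Rplp0, at 3.41 (1.75 to 7.59) and 2.39 (1.42 to 4.36), and for Eef1a1 in 1 direction, at 3.77 (1.78 to 9.54). Only B2m lay above 2.02 and 2.03 in both directions, at 15.5 (2.71 to 621) and 16.4 (2.87 to 656). Its 2 high bins held 1 IgG position in each direction. The bins of 1 window are neighbours and not independent, so the intervals for the windows may be too narrow.

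The contrast between high and other bins was shallower inside the windows in both libraries. In the windows, high bins had 4.54 times the H3KAc (4.34 to 4.74) and 1.73 times the IgG (1.41 to 2.11) of the other 234 bins. Outside, high bins had 10.1 times the H3KAc and 4.98 times the IgG (4.94 to 5.01) of other bins. These H3KAc multiples were measured with the reads that split the bins. Classed on plus-strand and measured with minus-strand reads, H3KAc was 4.67 RPM per kb in high and 1.02 in other bins of the windows. Outside, it was 4.02 and 0.411 RPM per kb. The other bins of the windows were themselves raised, at 0.981 RPM per kb in H3KAc (0.953 to 1.01) and 0.957 in IgG (0.868 to 1.05), against 0.408 and 0.428 outside. Their ratio was 1.03 (0.928 to 1.14), against 0.952 (0.951 to 0.954) outside, and both were kept for H3KAc below the level of high bins. Classed on 1 strand and measured on the other, the ratio of such bins in the windows was 1.05 (0.945 to 1.16) and 1.04 (0.937 to 1.15), against 0.958 and 0.959 outside.

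**Figure D4:**
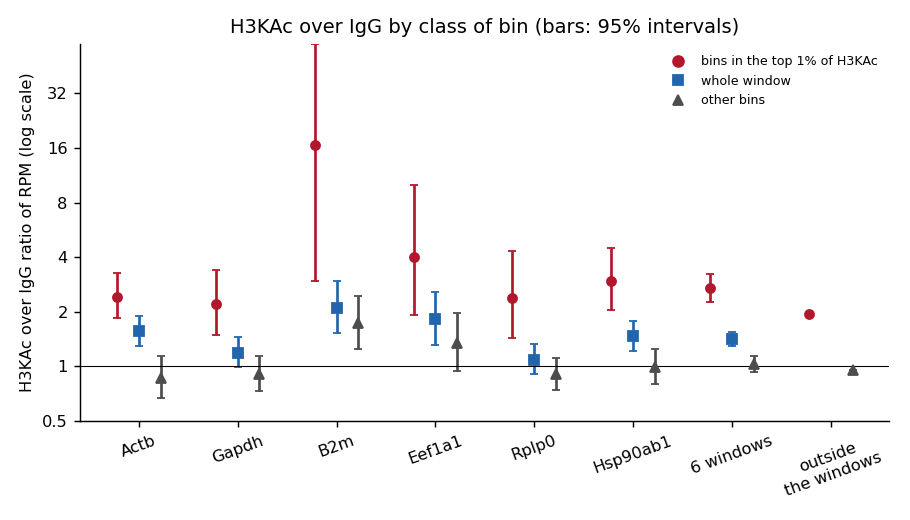
H3KAc over IgG ratio of RPM on a log scale for each window, for its bins in the top 1% of H3KAc and for its other bins, with 95% intervals. The same values are given for the 6 windows together and for bins outside them. The upper bound of the B2m high bins runs beyond the axis. Both classes were split by the H3KAc level itself, which raises the ratio of high bins and lowers that of other bins. The intervals of high bins lie above 1 in all 6 windows, and of the windows' other bins only that of B2m does.

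Bin by bin, the small number of distinct IgG positions left few calls. A bin was called enriched when it held at least 5 positions in both libraries together and the lower bound of its ratio was above 2. Of 263 tested bins in the windows 3 (1.14%) were called, against 0.0836% of tested bins in the genome. They were the Actb bin from 143666001 and the highest bin of B2m, both described above, and the Hsp90ab1 bin from 45693001 to 45694000. That Hsp90ab1 bin had 86 H3KAc positions and no IgG position, with a lower bound of 2.20. None of the Gapdh, Eef1a1 and Rplp0 bins was called. With a lower bound above 1, 21 bins (7.98%) were called, against 0.651% in the genome: 7 for Actb, 5 for Hsp90ab1, 3 each for Gapdh and B2m, 2 for Eef1a1 and 1 for Rplp0. With IgG taken over 11 bins and a lower bound above 2, 24 bins (9.13%) were called, against 2.15%, of which 7 were in the B2m window, 6 in that of Hsp90ab1, 5 in that of Actb, 3 in that of Gapdh, 2 in that of Eef1a1 and 1 in that of Rplp0. Deep bins are called more readily. The median bin of the windows had 20 H3KAc positions and the median covered bin 6, and the part of depth in these shares was not tested.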

How the data were processed

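Both libraries were deposited as BED files with 1 row per aligned read. The submitters' processing notes name Bowtie and the build mm9. Its version, any filter and the handling of reads that align more than 1 time: not given in the sources used here. Read positions were deposited by the authors without normalization or other values, and every read interval was 35 bases long. Repeats of a start position on the same strand were dropped, and the distinct positions were moved 100 bp along their strand (the protocol's fragments were about 200 bp) and assigned to 1-kb bins. Ratios have exact conditional binomial (Clopper-Pearson) and levels exact Poisson 95% intervals, for counting error only; PCR copies carried no molecular identifier. There was 1 library per group, so no p-value was computed. Tiles counted where at least 40 of 45 bins were covered. Within a window, the bins named are the highest, the enriched ones and the runs of bins in the top 1% of H3KAc. Members, lists and tests were chosen with earlier results of these data known. Scripts ran under Python 3.11.15 with scipy 1.17.1, numpy 2.4.6 and pandas 2.3.3, and figures were drawn with matplotlib 3.10.9.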

Additional observations from a re-analysis of the deposited data

How the results depend on the processing

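The ratio of the 6 windows together, 1.41, stayed between 1.33 (IgG scaled by background bins) and 1.47 (all deposited reads) under 6 alternatives, and between 1.36 and 1.502 when each window was left out in turn, which was added after seeing the data. The window ratios stayed within the intervals given under all 6 alternatives, but that of Rplp0 ranged from 0.982 with plus-strand reads to 1.22 with minus-strand reads. The ratio of the highest bin fell to 2.88 for Actb with minus-strand reads and rose to 10.4 with plus-strand reads; its lower bound with minus-strand reads was 0.953. The lower bound of the highest bin was also below 1 for Gapdh with plus-strand reads (0.724) and thinned H3KAc (0.953), for Rplp0 in the same 2 settings (0.692 and 0.640) and for Hsp90ab1 with plus-strand (0.987), minus-strand (0.919) and thinned reads (0.993). With all deposited reads the window intervals of Gapdh (1.04 to 1.27) and Rplp0 (1.01 to 1.24) lay above 1. The 3 enriched bins (1178 in the genome) became 43 with all deposited reads (39577), 21 with a lower bound above 1 (9177), 24 with IgG over 11 bins (30357), 2 with IgG scaled by background bins (950; B2m lost), 2 with thinned H3KAc (940; Hsp90ab1 lost), 1 with reads not moved (1206; the Actb bin), 1 with 500-bp bins (638; a different Hsp90ab1 bin, from 45711001) and 0 with plus-strand reads (127), with minus-strand reads (128) and with a lower bound above 4 (27). All deposited reads enter the interval as if independent, and 1 strand keeps fewer reads; other causes were not tested. The 41 high bins (22869 in the genome) became 24 with H3KAc thinned to the IgG number (15614), 6 in the top 0.1% (2248), 120 in the top 5% (125177) and 62 of 550 bins of 500 bp (39003). The number of distinct IgG positions limits every ratio of a single bin. No paired analysis was possible because each group has 1 library.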

Other observations

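Repeated reads were left out of the comparisons. The mean number of reads per position in the 6 windows was 1.13 for H3KAc and 3.95 for IgG, against 1.11 and 4.02 in the whole libraries. Over the windows, H3KAc repeats ranged from 1.11 reads per position for Rplp0 and B2m to 1.15 for Eef1a1 and Actb, and IgG from 3.53 for Eef1a1 to 4.24 for Gapdh.

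Stretches without a read start in either library were longest in the Eef1a1 window, with 1373 bp from chr9:78340833 to 78342205, and in the B2m window, with 991 bp from chr2:121967615 to 121968605. In the other 4 windows the longest measured 855 bp for Gapdh, 640 bp for Rplp0, 486 bp for Hsp90ab1 and 446 bp for Actb. Stretches of 300 bp or more covered 14287 bp of the B2m window and 12903 bp of the Eef1a1 window, against 6031 bp for Gapdh, 4332 bp for Actb, 4229 bp for Rplp0 and 3905 bp for Hsp90ab1.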
